A study of Prunus persica with 84 samples.

Results

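The 200 genes described here are abundant transcripts in floral buds of an earlier blooming peach genotype at the start of bloom. Their levels were higher then than at the end of chilling, both in this genotype and in a later blooming one. They were chosen from 26879 genes by their own levels. A gene had to be highest in John Boy (JB) after 20 d of warmth among the JB warm times, at least 16 times its JB level after 1000 h of chilling, and in KV021779 (LP) at least 4 times higher after 28 d of warmth than after 1000 h of chilling. Levels were group means of CPM, a gene's count divided by the library's total and multiplied by 1000000, with 0.5 CPM added before each ratio. These criteria were met by 289 genes, and the 200 with the highest JB level at 20 d were taken. All of these contrasts therefore describe how the genes were chosen, and no test is made on them.

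All libraries came from cut shoots that stood in water, at 4 °C for up to 1000 h and then at 22 °C until bloom began, at 20 d in JB and 28 d in LP, so that hours of cold cannot be told apart from time since cutting. Buds were sampled at 0, 100, 200, 400, 600, 800 and 1000 h of chilling and at 1, 4, 8, 12, 16 and 20 d of warmth, with 24 and 28 d added for LP. Each of the 28 groups had 3 libraries, with 8021919 to 26346177 counts in JB and 8823829 to 16989188 in LP. Each genotype is a single cultivar or selection, nothing says whether replicates came from separate trees, and no shoots were kept without chilling. The p-values below therefore set differences against a spread between libraries that may be technical only.

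In stone fruits, floral buds formed in summer become dormant and open in spring once cold and then warmth have been received. In the last days before bloom petals expand and colour, filaments and pistil lengthen and pollen ripens, and buds at this stage are known to switch on genes for cell wall remodelling, pigments, scent and pollen. The count table names genes by identifier alone, and the reference gene table used here shares no identifier with it. Hence no member can be given a name or role, the tissue label could not be checked with marker genes, and at most 2 identifiers per direction are printed for a comparison.

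**Figure D1:**
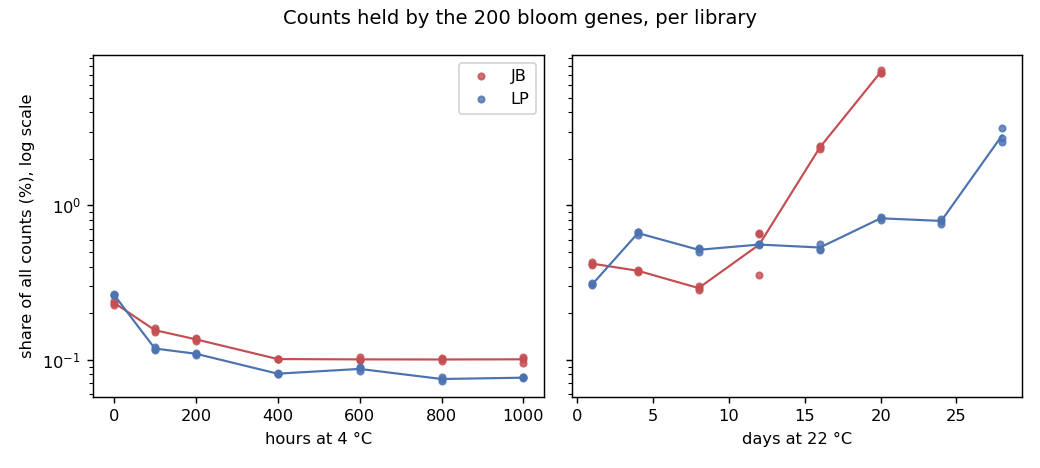
Share of all counts (%, log axis) held by the 200 members in each of the 84 libraries, against hours at 4 °C (left) and days at 22 °C (right). Points are libraries and lines join group means; the JB libraries at 20 d lie between 7.19% and 7.53%, and the LP libraries at 28 d between 2.59% and 3.19%.

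Together the 200 genes held 7.53%, 7.20% and 7.19% of all counts in the JB libraries at 20 d. In JB after 1000 h of chilling their share was 0.0955%, 0.104% and 0.101%. It was 0.291% ± 0.0095 at 8 d and 2.38% ± 0.046 at 16 d (SD, n = 3), so most of the gain fell in the last 2 intervals before bloom. In LP the share was 0.824% ± 0.019 at 20 d and 0.792% ± 0.03 at 24 d. At 28 d it was 2.72%, 2.59% and 3.19%, values near those of JB at 16 d. That they lie below JB at 20 d follows in part from the choice, which ranked genes by the JB level at 20 d and asked for a larger ratio in JB than in LP. Buds were sequenced whole, so fewer cells of a type and less RNA per cell cannot be told apart. A larger share for these genes also lowers the CPM of all others.

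A few genes carried most of this share. The median member stood at 106 CPM in JB at 20 d and the lowest at 35.6 CPM, while the next gene in order, which was not taken, had 35.0 CPM. PRUPE_1G477200 and PRUPE_1G476200 were the most and second most abundant of all 26879 genes in JB at 20 d, and held 31.8% of the members' summed CPM. The 20 highest members held 66.3%. Among the 100 most abundant genes of the table, 14 were members in JB at 20 d and 8 in LP at 28 d.

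PRUPE_1G477200 had 12310, 11576 and 11396 CPM in the JB libraries at 20 d, after 3634, 3445 and 3610 CPM at 16 d and 97.3, 108 and 88.4 CPM at 12 d. In LP it had 2496, 2270 and 3551 CPM at 28 d, after 500, 472 and 445 CPM at 24 d. PRUPE_1G476200 had 12038, 11317 and 11057 CPM in JB at 20 d and 4780, 4236 and 5863 CPM in LP at 28 d. Both genes stood in LP at 28 d below every JB library of 20 d. Against JB at 16 d, the LP mean at 28 d was lower for PRUPE_1G477200 (2772 and 3563 CPM) and higher for PRUPE_1G476200 (4960 ± 828 and 4196 ± 126 CPM).

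Some of the members have neighbouring identifiers. With identifiers at most 10 steps apart in the sorted table, 65 of the 200 fell in 26 runs; at most 5 steps gave 45 members and a longest run of 4, and directly adjacent identifiers 24 members and a longest run of 3. No value for other genes was computed for comparison. The longest run at 10 steps held 8 members, from PRUPE_1G475100 to PRUPE_1G477800, among 28 identifiers. This run held 43.5% of the members' CPM in JB at 20 d, and its members ranked 1, 2, 3, 5, 14, 29, 118 and 197 by level. Identifiers for chromosome 1 made up 30% of the members against 21.9% of the table, and those for chromosome 3 16.5% against 11.8%. Chromosome and order are read here from the identifiers, as no matching genome annotation was used, and neighbours may be similar copies that share reads. How reads shared by copies were counted is unknown from the labels, so the split of counts within the run is uncertain.

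**Figure D2:**
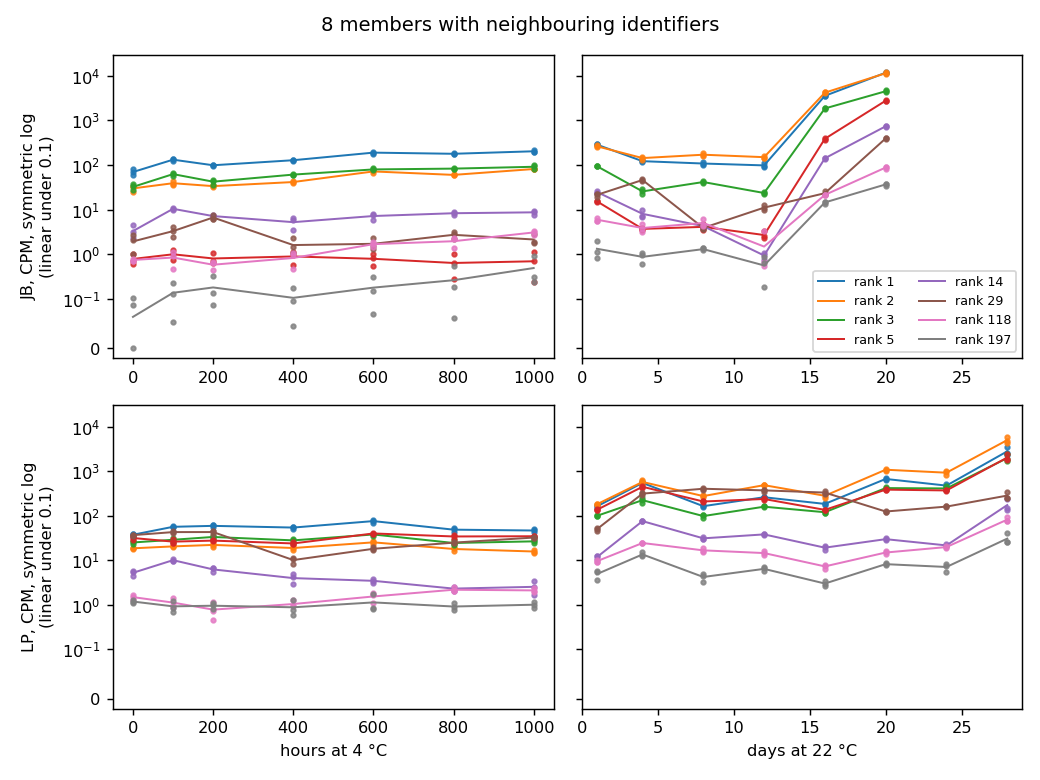
CPM (symmetric log axis, linear under 0.1) of the 8 members of the longest run of neighbouring identifiers, in JB (top) and LP (bottom), against hours at 4 °C and days at 22 °C. Points are libraries, lines join means of 3 libraries, and ranks are by JB level at 20 d; the run totals 31778 CPM in JB at 20 d and 12268 CPM in LP at 28 d.

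Members differed in how far JB had moved by 16 d. The JB level at 16 d was a median of 34.2% of that at 20 d, with a range from 0.488% to 99.99%. Under 25% had been reached by 74 members, 25 to 50% by 57, and at least 50% by 69. In the first of these classes the median went from 16.9 CPM at 16 d to 155 CPM at 20 d, and in the last from 66.1 to 88.8 CPM. A 4-fold excess over 1000 h of chilling was first seen at 16 d for 106 members and at 1 d for 54. Replicates at JB 20 d were close, with a median coefficient of variation of 4.2% over members.

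How far LP at 28 d lay from JB at 20 d varied widely among members. Both levels entered the choice, which favoured genes high in JB at 20 d, so nothing is read from the direction. The median was 24.8% of the JB level (22.9% without library 3 of LP 28 d), with quartiles at 8.26% and 49.99%, and 59 members were under 10%. For 177 members all 3 JB libraries of 20 d lay above all 3 LP libraries of 28 d, and for 8 all lay below, where over all tested genes the shares were 22.7% and 43.6%. PRUPE_7G227500 was the member furthest above, with 148 ± 54 CPM in LP at 28 d and 48.3 ± 2.9 in JB at 20 d (SD, n = 3). PRUPE_3G279500 was the furthest below, with 5.26 ± 1.2 and 615 ± 32 CPM. Against JB at 16 d the members split by group mean, 96 being higher in LP at 28 d and 104 lower. All 3 LP libraries lay above all 3 JB libraries for 69 members and below for 84, and the rest overlapped. No share over all tested genes was computed for this pair, so nothing is read from these counts.

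Library 3 of LP 28 d stood apart from the other libraries of its group, and library 3 of JB 12 d from those of its own. Over the 191 members with at least 1 CPM in libraries 1 and 2 of LP 28 d, library 3 was a median of 1.23 times their mean, at least 2-fold higher for 26 and at least 2-fold lower for 16. Over all 18713 tested genes at that level the median was 0.980, and a 2-fold excess was seen for 0.844% and a 2-fold deficit for 3.94%. The LP mean at 28 d that entered the choice includes library 3, which favours members high in that library. In JB 12 d, library 3 was at least 2-fold lower for 48 of 144 members, against 3.73% of tested genes, and the members held 0.352% of its counts against 0.656% and 0.661% in the others. Without these 2 libraries the rule chose 174 of the 200 members again. The comparisons tested below use neither library except for the shared estimate of spread and through the choice of members.

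**Figure D3:**
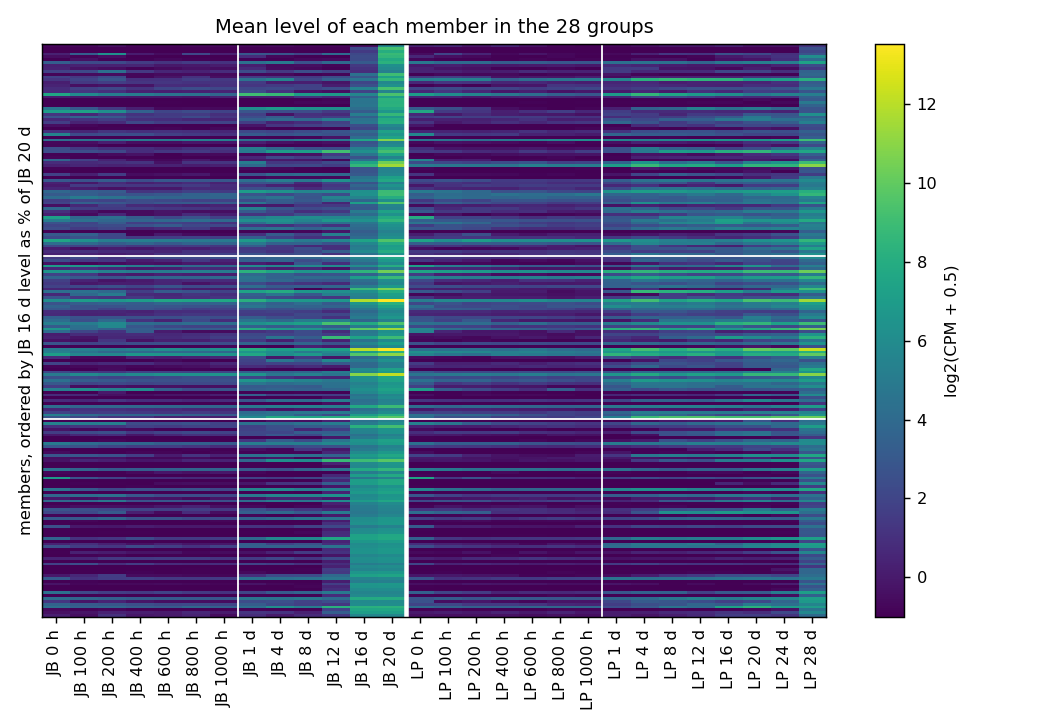
Mean level, as log2(CPM + 0.5), of the 200 members (rows, ordered by JB level at 16 d as a percentage of that at 20 d) in the 28 groups (columns, JB then LP, chilling then warm). White horizontal lines separate the classes of 74, 57 and 69 members; the members of the lowest block are bright from JB 16 d on and mostly dark in LP until 28 d.

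A subset of 32 members had at most 3 counts over the 18 libraries of 0 to 800 h in each genotype, which is 0.0121 CPM in JB and 0.0128 CPM in LP. At 22 °C these 32 genes summed to 3.52 CPM in JB at 8 d, 1605 CPM at 16 d and 4370 CPM at 20 d, and each had at least 2.24 CPM at 16 d. In LP they summed to 12.1 CPM at 20 d and 6.49 CPM at 24 d, and 3 of the 32 reached 1 CPM at 24 d. In LP at 28 d the sums were 185, 207 and 411 CPM in the 3 libraries, the highest in library 3. At 28 d their median LP level was 6.11% of that in JB at 20 d, against 29.7% for the other 168 members. Without library 3 of LP 28 d, left out after the levels were seen, these values were 2.78% and 27.9%. The level of the 32 genes at 28 d thus rests largely on that library. The choice of members also bears on the contrast between the 32 and the 168. With 0.5 CPM added, genes with few counts in LP at 1000 h could pass the 4-fold criterion at a lower level at 28 d. The contrast is therefore set in part by the choice, and nothing is read from it. Of the 32, 20 had reached at least 50% of their JB level by 16 d, against 49 of the 168. In all 32 the highest LP mean was at 28 d, as in 145 of the 168 and in 34.1% of tested genes, a peak that the choice favours since it asked for a high LP level at 28 d. The subset was formed after its values were seen, so no test is given.

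**Figure D4:**
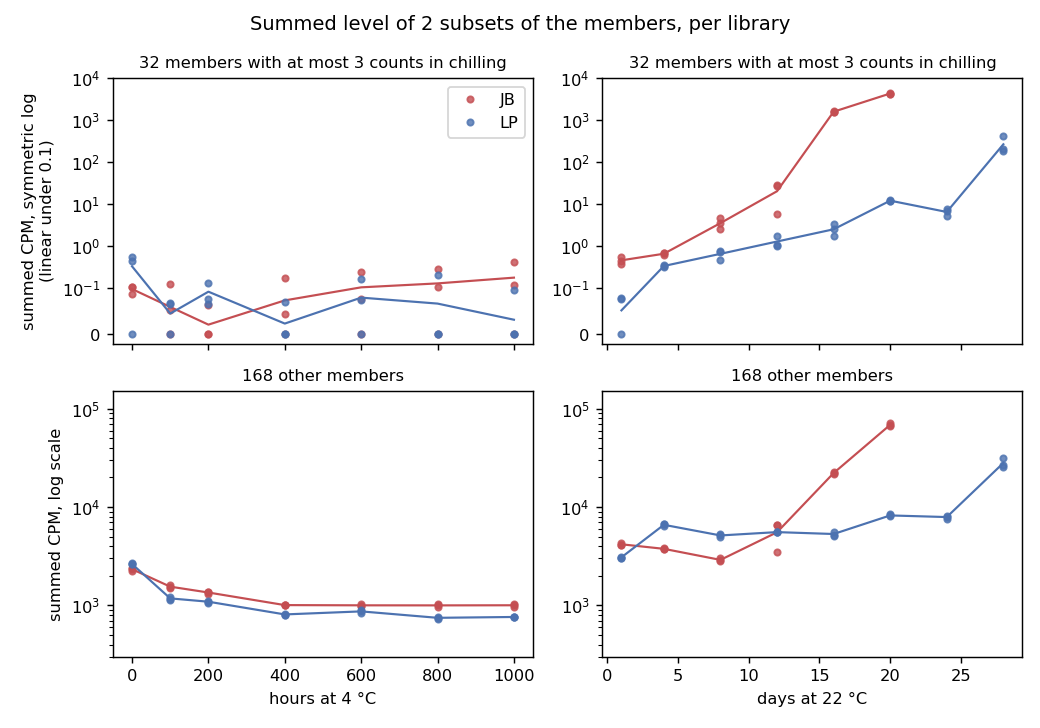
Summed CPM per library of the 32 members with at most 3 counts over chilling from 0 to 800 h in each genotype (top, symmetric log axis, linear under 0.1) and of the 168 others (bottom, log axis), against hours at 4 °C and days at 22 °C. Points are libraries and lines join group means; the LP sums for the 32 members stay at or under 12.5 CPM in every library to 24 d and reach 185 to 411 CPM at 28 d.

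Most members were already higher in LP at 20 d than at 1 d, a pair of groups that the choice of members did not use. Both lie between LP times that it did use, over which a rise was asked for. The choice thus favours a rise here, and the counts are given without a reading against the background. Of the 200, 121 rose and 15 fell (edgeR's quasi-likelihood test, Benjamini-Hochberg adjusted p under 0.05 over 21168 genes), and 64 did not pass. Over all tested genes 27% rose and 26.8% fell. At a minimum of 2-fold, 102 members rose and 11 fell, against 12% and 6.15%. The median log2 change was 1.66 over 163 members, with a group of no count set to a floor of 3 counts and members at or under the floor in both groups left out, against 0.0026 over 20385 tested genes. The 89 genes that met the same criteria at a lower level, and were thus favoured in the same way, gave 55 risen and 1 fallen. All 200 members were tested because their JB level at 20 d passes the count filter, so those not called include members with few counts at both days. In a fit of only the groups compared, 139 members passed the filter. Of these, 110 rose and 13 fell, against 6082 and 5957 of 18455 genes (edgeR, adjusted p under 0.05).

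PRUPE_3G189300 had 25.8, 23.4 and 22.9 CPM in the LP libraries at 20 d and 1 count in all at 1 d, a ratio of 1028 (95% exact binomial interval 184 to 40650, counting error only; edgeR adjusted p = 5.56e-35). At 24 d it had 8.37, 6.46 and 5.99 CPM. PRUPE_2G242400 had 5.42, 6.58 and 6.21 CPM at 20 d and no count at 1 d, at least 86.4-fold higher against 3 counts over the group (edgeR adjusted p = 4.92e-19). Among those that fell, PRUPE_3G280100 went from 12.9, 14.1 and 13.9 CPM at 1 d to 3.20, 3.65 and 3.43 CPM at 20 d, a log2 change of -2.00 ± 0.14 (SE, edgeR adjusted p = 2.41e-20). PRUPE_6G213600 went from 113, 122 and 120 CPM to 28.5, 31.0 and 35.0 CPM (-1.92 ± 0.12, edgeR adjusted p = 7.28e-23). Between these days it was higher, with 418, 395 and 378 CPM at 4 d. In each of these 4 genes the libraries of 1 d and 20 d did not overlap, which their choice as the largest called changes favours.

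Part of this rise was already present at 4 d. From 1 d to 4 d in LP, a comparison added after the levels were seen, 83 members rose and 17 fell, against 14.7% and 13.5% of tested genes, and 100 did not pass (edgeR, adjusted p under 0.05). At a minimum of 2-fold, 64 rose and 6 fell, against 4.03% and 1.36%. The choice of members favours a rise in this interval as well. Of the 89 genes that met the same criteria at a lower level, 41 rose and 0 fell. In a fit of only the groups compared, 124 members passed the count filter. Of these, 76 rose and 17 fell, against 4093 and 3920 of 18159 genes (edgeR, adjusted p under 0.05). The members' share of counts went from 0.308% ± 0.0035 to 0.66% ± 0.02 and was 0.515% ± 0.016 at 8 d. The median member in LP was at 1.55 CPM at 1 d, 2.51 at 4 d, 3.09 at 8 d and 5.15 at 20 d, so the lower share at 8 d was not matched by a lower median; 8 d was not tested against 4 d. In JB the share was 0.418% ± 0.0075 at 1 d, 0.376% ± 0.0062 at 4 d and 0.291% ± 0.0095 at 8 d. PRUPE_8G098800 went from 6.73, 6.65 and 7.22 CPM in LP at 1 d to 428, 409 and 414 CPM at 4 d (log2 change 5.89 ± 0.14, edgeR adjusted p = 4.13e-45), above its JB libraries of 20 d, which had 272, 238 and 261 CPM. By 20 d it had 34.1, 35.4 and 34.3 CPM in LP. PRUPE_8G257700 went from 0.475, 0.706 and 0.912 CPM to 9.49, 11.5 and 11.9 CPM (3.91 ± 0.23, edgeR adjusted p = 4.01e-23).
The larger of the falls were small beside these. PRUPE_1G520800 went from 11.2, 10.01 and 10.4 CPM to 4.07, 4.55 and 4.37 CPM (-1.31 ± 0.15, edgeR adjusted p = 2.4e-11). PRUPE_5G072800 went from 15.4, 14.5 and 12.8 CPM to 6.22, 5.93 and 6.64 CPM (-1.23 ± 0.19, edgeR adjusted p = 5.76e-07).

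Between 20 and 24 d in LP, the interval before its last rise, the members moved in both directions. In this step 41 rose, 35 fell and 124 did not pass (edgeR, adjusted p under 0.05), where 13% of tested genes rose and 10.8% fell. At a minimum of 2-fold, 17 rose and 21 fell, against 2.3% and 3.46%. In a fit of only the groups compared, 144 members passed the count filter. Of these, 42 rose and 36 fell, against 2405 and 2365 of 18471 genes (edgeR, adjusted p under 0.05). The median log2 change was 0.072 over 171 members, with the same floor, and 0.023 over 20615 tested genes. PRUPE_3G263500 had no count in any LP library at 20 d and 12.7, 12.5 and 15.5 CPM at 24 d, at least 149-fold higher against 3 counts over the group (edgeR adjusted p = 3.43e-20). At 28 d it had 194, 225 and 269 CPM, above its JB libraries of 20 d with 154, 159 and 164. PRUPE_3G234900 went from 0.888, 0.731 and 1.02 CPM to 35.9, 33.4 and 26.1 CPM (log2 change 5.17 ± 0.24, edgeR adjusted p = 6.02e-29). PRUPE_3G037800 fell from 86.3, 90.3 and 91.8 CPM to 19.0, 15.5 and 17.3 CPM (-2.36 ± 0.089, edgeR adjusted p = 3.67e-34). PRUPE_2G242400, which had risen by 20 d, fell to 1.32, 1.36 and 1.59 CPM (-2.09 ± 0.24, edgeR adjusted p = 2.1e-09).

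**Figure D5:**
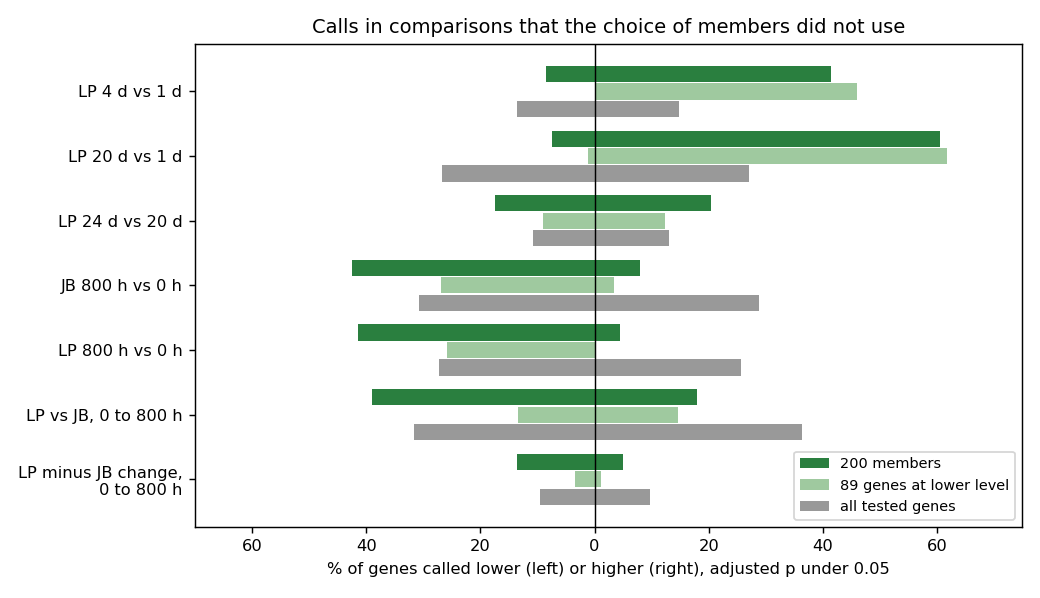
Percentage of genes called lower (left) and higher (right) at an adjusted p under 0.05 in 7 comparisons whose groups did not enter the choice of members, for the 200 members, the 89 genes that met the same criteria at a lower level, and all 21168 tested genes. In LP from 1 d to 20 d, 121 of the 200 members rose, as did 55 of the 89 genes at a lower level and 27% of tested genes. The bars are not read against tested genes, as the choice of members favours a rise in warmth and a fall in chilling.

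Over chilling, more members fell than rose in both genotypes. The choice of members favours this direction, since both of its ratios asked for low levels at 1000 h and the share of counts at 800 h was close to that at 1000 h. The counts below are therefore given without a reading against the background. From 0 to 800 h, 85 members fell, 16 rose and 99 did not pass in JB (edgeR, adjusted p under 0.05), against 30.7% and 28.9% of tested genes. In LP 83 fell, 9 rose and 108 did not pass, against 27.3% and 25.7%. At a minimum of 2-fold, 73 fell and 11 rose in JB, against 11.2% and 7.69%, and 72 fell and 6 rose in LP, against 10.6% and 4.63%. Members not called include ones with few counts in chilling. In fits of only the groups compared, 113 members passed the count filter in JB and 108 in LP. In JB 73 fell and 14 rose, against 5647 and 5624 of 17789 genes (edgeR, adjusted p under 0.05). In LP 76 fell and 8 rose, against 5229 and 5043 of 17564 genes. The median log2 change was -0.80 over 152 members in JB and -0.92 over 147 in LP, with the floor, and 0.22 and 0.095 over tested genes. At 0 h the members' share of counts was 0.234% ± 0.0076 in JB and 0.264% ± 0.0033 in LP (SD, n = 3), above that at 800 h, where it was 0.1% ± 0.0026 and 0.0747% ± 0.0023. Many members were thus present long before bloom, with 108 at 1 CPM or more in JB at 0 h and 105 in LP.

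PRUPE_8G257700 is an example of a fall in JB and in LP alike. Its JB libraries went from 28.4, 26.5 and 20.7 CPM at 0 h to 0.184, 0.185 and 0.107 CPM at 800 h (log2 change -7.39 ± 0.27, edgeR adjusted p = 4.5e-35), and its LP libraries from 8.50, 8.86 and 10.2 CPM to no count, at least 95.1-fold lower (edgeR adjusted p = 1.61e-25). PRUPE_1G346200 had 94.3, 99.7 and 151 CPM in JB at 0 h, above its level of 41.9, 40.4 and 38.8 CPM at the start of bloom, and 0.738, 1.57 and 1.07 CPM at 800 h (-6.94 ± 0.17, edgeR adjusted p = 5.47e-45). The fall of PRUPE_6G126400 in LP went from 47.9, 47.2 and 41.4 CPM to 2 counts in all, a ratio of 692 (95% exact binomial interval 191 to 5722; edgeR adjusted p = 1.46e-32).
The genes that rose over chilling changed less. PRUPE_1G477200, the most abundant member, rose in JB from 79.6, 70.0 and 59.4 CPM to 177, 175 and 184 CPM (1.14 ± 0.11, edgeR adjusted p = 4.47e-15). PRUPE_1G477400, of the same run, rose from 33.1, 36.6 and 27.1 CPM to 81.7, 83.95 and 83.3 CPM (1.14 ± 0.12, edgeR adjusted p = 7.21e-13). In LP, PRUPE_6G332500 rose from 19.95, 24.9 and 23.7 CPM to 47.9, 51.4 and 50.95 CPM (1.04 ± 0.11, edgeR adjusted p = 2.42e-12). PRUPE_3G282700 rose from 2.67, 1.51 and 2.02 CPM to 4.38, 5.17 and 6.52 CPM (1.23 ± 0.28, edgeR adjusted p = 0.000107).

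Averaged over the 6 chilling times from 0 to 800 h, 78 members were lower in LP than in JB, 36 were higher and 86 did not pass (edgeR, adjusted p under 0.05). Over all tested genes 31.6% were lower and 36.3% higher. The median log2 difference was -0.44 over 168 members, with the floor, and -0.065 over tested genes. At a minimum of 2-fold, 42 members were lower and 20 higher, against 7.33% and 3.33%. The choice of members asked for low levels at 1000 h by unequal ratios in JB and LP, and so bears on this comparison. Of the 89 genes that met the same criteria at a lower level, 12 were lower and 13 higher at an adjusted p under 0.05 in edgeR. Many of these genes had few counts in chilling. In a fit of only the groups compared, 39 of the 89 passed the count filter, with 11 lower and 7 higher (edgeR, adjusted p under 0.05). In that fit 136 members passed it, with 79 lower and 33 higher, against 6935 and 6987 of 19355 genes.

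The 2 members furthest above JB in LP both belong to the run on chromosome 1. PRUPE_1G477800 had 31.2, 28.96 and 34.3 CPM in LP and 0.700, 1.03 and 0.616 CPM in JB at 0 h, and LP was higher at every one of the 6 times (log2 difference 5.25 ± 0.076, edgeR adjusted p = 3.84e-61). In JB the same gene reached 2769.7 CPM at 20 d, and in LP 2010.5 CPM at 28 d. PRUPE_1G475400 had LP group means between 10.1 and 42.8 CPM and JB group means between 1.60 and 6.64 CPM (3.39 ± 0.071, edgeR adjusted p = 3.36e-51).
Lower in LP was PRUPE_4G166000, which in JB had a peak of 33.8, 33.0 and 31.6 CPM at 200 h and 1.03 ± 0.1 CPM at 0 h, while no LP group mean exceeded 0.523 CPM (-3.48 ± 0.28, edgeR adjusted p = 3.54e-18). For PRUPE_8G098800 the JB means were 19.1 ± 2.7 and 5.99 ± 0.4 CPM at the first and the last of these times, the LP means 7.69 ± 0.79 and 0.194 ± 0.092 CPM, and it was lower in LP over the 6 times (-2.79 ± 0.12, edgeR adjusted p = 2.38e-33).

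The change over chilling itself differed between genotypes for 37 members, which is 18.5% of them, close to the 19.2% of all tested genes. Of these, 10 had a more positive and 27 a more negative change in LP (test of the difference of changes, edgeR adjusted p under 0.05), while 163 did not pass. By direction the background was 9.71% and 9.53%. At a minimum of 2-fold the counts were 7 and 19, against 1.81% and 2.86%. Without replicate 1 of every group the count was 22, and without replicate 2 it was 24. In a fit of only the groups compared, 124 members passed the count filter and 35 were called (edgeR, adjusted p under 0.05). Over all genes in that fit, 3168 of 18337 were called. The share of members called thus depends on whether members with few counts in chilling are included. PRUPE_1G264700 went from 198, 188 and 167 CPM to 29.01, 28.3 and 31.3 CPM in JB, and in LP from 160.5, 172 and 172 CPM to 75.3, 69.8 and 80.5 CPM, so that LP stood above JB at 800 h with no overlap (difference of log2 changes 1.61 ± 0.16, edgeR adjusted p = 1e-12). PRUPE_1G275300 went in JB from 9.80, 8.00 and 6.77 CPM to 0.184, 0.0925 and 0.321 CPM, and had 0.480, 0.648 and 0.675 CPM at 0 h and 0.995, 0.596 and 0.284 CPM at 800 h in LP (5.52 ± 1, edgeR adjusted p = 3.14e-05). The change was more negative in LP for PRUPE_8G098800 (-3.45 ± 0.54, edgeR adjusted p = 1.05e-06). For PRUPE_6G126400 the test gave an adjusted p = 0.00126 in edgeR, with 2 counts left in LP at 800 h and 16 in JB, and the adjusted p was 0.0602 without replicate 2 of every group.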

How the data were processed

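Floral buds of John Boy (JB) and KV021779 (LP) were profiled in 28 groups of 3 libraries, grouped by sample title. RNA extraction used a Norgen kit and libraries were TruSeq Stranded mRNA, per the labels. The authors deposited 1 table of unnormalized counts, from which CPM were computed with plain column totals. The submitters' processing notes name STAR 2.6.0, Trimmomatic, FastQC 0.11.9 and edgeR. Build, annotation, counter and strand use: not given in the sources used here.

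Members and lists were chosen with earlier results of these data known. edgeR 4.0.16 (R 4.3.3) was fitted once to all 84 libraries, with filterByExpr by group (21168 genes kept, 0.028% of reads lost), TMM scaling (factors 0.87 to 1.16), 1 coefficient for each group and 56 residual degrees of freedom. All 200 members passed the filter, as their JB level at 20 d alone assures. SE are the log2 change over the root of F. Named genes were, per comparison, the 2 largest rises and falls among called members with at least 5 CPM in the higher group, beside the 2 highest members; the extremes of the LP to JB ratio and the run ends were named after their values were seen. Lists by product description could not be filled, as no description was at hand. The fit was tested on simulated data. Alternatives were DESeq2 1.42.0, its size factors, no filter, only the groups compared, a replicate block, a 2-fold minimum and leaving out libraries.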

Additional observations from a re-analysis of the deposited data

Results flagged for a closer look

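The change from 0 to 800 h of chilling differed between LP and JB for 37 members (edgeR's quasi-likelihood test of the difference itself, adjusted p under 0.05). That is 18.5% of all 200 members, against 19.2% of all tested genes. By direction, 10 members had a more positive change in LP (background 9.71%) and 27 a more negative one (9.53%). With a 2-fold minimum these counts were 7 (1.81%) and 19 (2.86%). In a fit of only the groups compared, 124 members passed the count filter and 35 were called, against 3168 of 18337 genes (edgeR, adjusted p under 0.05). The choice of members, which asked for low levels at 1000 h by unequal ratios in JB and LP, bears on this comparison. The difference of log2 changes, LP minus JB, was 5.52 for PRUPE_1G275300, which was lower at 800 h than at 0 h in every JB library and stood under 1 CPM at both times in LP, and 1.61 for PRUPE_1G264700, which was lower at 800 h in both. It was -4.27 for PRUPE_6G126400, a fitted value that rests on 2 counts in LP at 800 h, and -3.45 for PRUPE_8G098800, which was lower at 800 h in both. No explanation was tested.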

How the results depend on the processing

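The number of rows that met the fold criteria went from 289 to 493 with 0.1 CPM in place of 0.5 in the ratios, and was 211 with 1 CPM; between 169 and 190 of the 200 members were chosen again under the other settings and without replicate 1, 2 or 3. The members' share of counts in JB at 20 d was 7.58% on TMM-scaled totals and 6.67% for 100 genes, and in LP at 28 d 2.51% on TMM-scaled totals. All 289 rows were taken where 400 were asked for.

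A 2-fold minimum left 38 members called in LP from 20 to 24 d, 17 higher and 21 lower, and 62 in LP against JB over chilling. Without a replicate number, the difference of chilling changes gave 22 to 33 members, and LP from 20 to 24 d 52 to 80. Over all tested genes these leave-one-out fits called 1973 to 3626 genes in place of 4072, and 2599 to 5111 in place of 5026; for LP from 1 to 4 d they called 3848 to 4709 in place of 5981. The other counts of called members stayed within 1.5 times the reported ones under every alternative run. Same-numbered libraries did not deviate together (correlations from -0.238 to 0.227), so the main fit did not pair them by number. Whether a number marks a shared tree or batch cannot be told from this check. With the replicate block the counts in the order LP 20 d, LP 24 d, LP 4 d, genotype, JB chilling, LP chilling and difference of changes were 135, 76, 101, 115, 101, 91 and 36. Without JB 12 d and LP 28 d libraries 3 they were 140, 85, 108, 121, 110, 97 and 43. Every gene named in a test kept its call in 9 of 9 other fits, except PRUPE_6G126400 in the difference of changes, in 8 of 9. Members under 1 CPM rest on few counts in each library, which limits what can be seen of them in chilling.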
